A study of Mus musculus with 32 samples.

Results

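The comparison set the midbrain (Mb) of E9.5 mouse embryos lacking Cdh6, Cdh8 and Cdh11 (TKO_Ex, 4 libraries) against the Mb of double-knockout embryos with exencephaly (DKO_Ex, 3 libraries). Both groups carry deletions in Cdh8 and Cdh11, so the loss of Cdh6 is what the labels set apart between them. Genes were taken if they averaged 1 FPKM or more in these 7 libraries, which gave 13360 of 48576 genes. FPKM is the number of sequenced fragments scaled by the length of the transcript and by the number of mapped fragments of the library. The 7 libraries are part of a series of 32, in which forebrain (Fb) and Mb were dissected from wild type (WT), TKO_Ex, DKO_Ex and double-knockout embryos with a cranial defect (DKO_CD).

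The alleles were made by Cas9 cleavage in the exon that holds the start codon, in B6C3F1 eggs, and descend from a single founder. Mutants came from intercrosses of triple heterozygotes and WT embryos from matings of WT mice. The sample labels give no Cdh6 genotype for DKO_Ex. For DKO_CD the labels name Cdh6 and Cdh8 as the deleted pair, whereas the study's methods describe that group among Cdh8 and Cdh11 double knockouts. The labels do not mention exencephaly for the TKO group, which the study calls TKO_Ex. For 12 files, the heading inside the file gives one of the DKO groups and its GEO record gives the other. Groups here follow the headings. Grouping by record puts the libraries headed DKO_CD in the place of DKO_Ex, and its values are given beside results whose call or direction it changes.

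Cadherins are calcium-dependent adhesion molecules of the cell surface that bind the same or related cadherins on neighbouring cells, and they are linked inside the cell to actin through catenins. Type II cadherins, among them Cdh6, Cdh8 and Cdh11, mark regions of the early neural tube and its neighbouring mesenchyme. In exencephaly the cranial neural folds fail to close and the brain remains exposed.

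Cdh6 had 0.388, 0.353, 3.097 and 0.345 FPKM in TKO_Ex and 3.12, 2.47 and 1.86 FPKM in DKO_Ex, with values in the order of replicates 1 to 4 and 1 to 3 here and below. Replicates 1, 2 and 4 of TKO_Ex were below every DKO_Ex library, whereas the library labelled TKO_Ex replicate 3 stood at a level within the DKO_Ex range. WT Mb libraries spanned 1.04 to 3.55 FPKM (n = 6). With all 4 TKO_Ex libraries the means were 1.05 ± 1.37 and 2.48 ± 0.631 FPKM (SD, n = 4 and 3), and a two-sided exact permutation test gave p = 0.171. The smallest p this design allows is 0.0571. Without the library labelled replicate 3 the TKO_Ex mean was 0.362 FPKM and the log2 difference was -1.34 (limma, adjusted p = 0.319). The same library also stood apart at the non-coding gene Gm26825, with 0.262, 0.238, 8.36 and 0.464 FPKM in TKO_Ex and 0 FPKM in every DKO_Ex library, against 7.92 to 19.3 FPKM in WT. At Gm12013 it held all of the signal, with 0, 0, 281 and 0 FPKM in TKO_Ex and 0 FPKM in every DKO_Ex library. Since this library goes against its label at the targeted gene, directions below rest on a group in which 1 of 4 members is in doubt, and values without it are given where they change a result.

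Cdh8, which lies next to Cdh11 in a cadherin cluster, had 1.19, 0.851, 1.59 and 2.32 FPKM in TKO_Ex and 1.63, 2.49 and 1.67 FPKM in DKO_Ex, and the groups overlapped (exact permutation p = 0.286). By record the log2 difference of Cdh8 turned from -0.26 to 0.12. Cdh11, a cadherin of mesenchyme and neural tissue, had 16.4, 14.5, 16.2 and 16.6 FPKM in TKO_Ex and 18.4, 17.6 and 18.7 FPKM in DKO_Ex. Each TKO_Ex library was below each DKO_Ex library for Cdh11, at the smallest p the design allows, 0.0571 by the exact permutation test, whereas limma gave an adjusted p of 0.786. WT Mb spanned 1.14 to 10.1 FPKM for Cdh8 and 17.9 to 28.7 FPKM for Cdh11. Because the deletions remove part of an exon and transcripts can still be made, FPKM of these genes checks the genotype in part only.

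**Figure D1:**
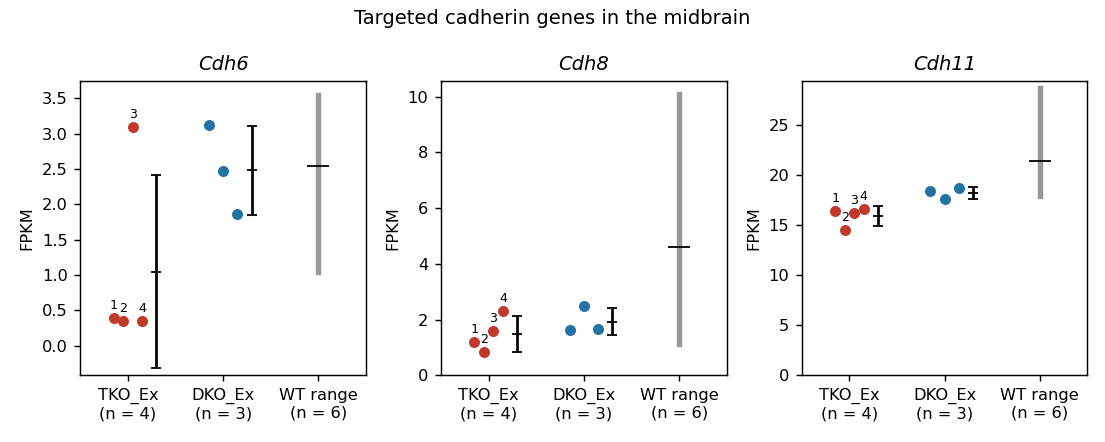
FPKM of Cdh6, Cdh8 and Cdh11 in each TKO_Ex (red, numbered by replicate) and DKO_Ex (blue) Mb library, with black bars for the mean and SD, and the WT range with its median as a grey bar. For Cdh6 the TKO_Ex library numbered 3 is at 3.097 FPKM while the other 3 are between 0.345 and 0.388 FPKM.

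The 7 Mb markers were detected in both groups at unlike levels. Pax2 ran from 2.22 to 3.98 FPKM in TKO_Ex and from 3.34 to 5.39 FPKM in DKO_Ex. Pax7 ran from 4.46 to 6.90 and from 3.31 to 5.20 FPKM. En1 ranged from 42.6 to 65.5 FPKM in TKO_Ex and from 43.4 to 62.4 FPKM in DKO_Ex, and En2, its partner in Mb specification, from 47.6 to 64.1 and from 49.0 to 62.4 FPKM. The 4 hindbrain markers summed to at most 0.826 FPKM. The 5 forebrain markers summed to between 5.92 and 30.6 FPKM in TKO_Ex and between 17.1 and 34.6 FPKM in DKO_Ex. Among them Pax6 ran from 5.15 to 28.7 and from 16.4 to 30.6 FPKM, so signal of forebrain markers was present in both groups. Estimated depth was 2.08 to 2.46 M fragments in TKO_Ex and 3.25 to 3.4041 M in DKO_Ex, so the 2 groups did not overlap in depth. Xist and Y-linked genes marked 3 female and 1 male embryos in TKO_Ex and 2 female and 1 male in DKO_Ex.

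Between the groups 17 of 13360 features passed an adjusted p of 0.05 with limma (0.127% of those tested), 16 of them higher in TKO_Ex and 1 lower. Of the 17, 14 are processed pseudogenes, that is, gene copies made by reverse transcription of a spliced mRNA, 2 are annotated as protein-coding and 1 is a small nuclear RNA. No other protein-coding gene passed. All 17 have less than 1000 bases of exon, from 191 to 955 bases, and all had groups that did not overlap. In the data as a whole, every TKO_Ex library was above every DKO_Ex library for 3.87% of the genes tested and below for 3.74%. At an unadjusted limma p under 0.05, 4.19% of the genes tested were higher in TKO_Ex and 3.27% lower. List counts below are to be read beside these shares. Genes named from lists were chosen by smallest p, so separate groups among them are in part a result of that choice. When DKO libraries were grouped by record, 1 feature was called, which was none of the 17. With tests restricted to protein-coding genes, or to features of at least 1000 bases of exon, 0 were called by limma, with 746 and 792 at an unadjusted p under 0.05. Without the doubtful TKO_Ex replicate 3, 13 features were called, 11 higher and 2 lower, and 8 of them were among the 17. These 8 are Gm23472, Gm17538, Gm9238, Gm20302, Gm3617, Gm12254, Gm10145 and Gm9794, and the other 9 did not pass without it.

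The number and direction of calls also moved with other libraries. There were 7 calls without TKO_Ex replicate 1, 9 without replicate 2 and 8 without replicate 4. Without DKO_Ex replicate 1 there were 4 (2 higher and 2 lower, 3 of them among the 17), without replicate 2 there were 8 (4 higher and 4 lower, 5 among the 17) and without replicate 3 there were 24 (21 higher and 3 lower, 11 among the 17). With no filter on low values the 13 calls were 8 higher and 5 lower, and 9 were among the 17.

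Some of the copies and the genes they come from are shown as pairs of 101 bases, the length of 1 read, chosen from copies of high identity to show how little can separate them. Not all called copies are this close. Gm3617 (96.4% identical to its parent), Gm9238 (93.49%) and Gm20302 (92.75%) share no stretch of 101 bases with it, and of all such stretches Gm11478 shares 1.6%, Gm11942 5.7%, Gm9625 10.9% and Rpl18-ps1 12.5%. The median share was 8.4% over 268 tested copies of ribosomal protein genes and 29.0% over 565 copies of other genes. Sequences are from GENCODE M21 on GRCm38, 5′ to 3′ on the strand of the gene, inside the coding sequence of the parent gene, and capitals mark the bases that differ between the 2 members of a pair. Rpl31-ps9, a copy of the large-subunit ribosomal protein gene Rpl31, is shown at chr1:129801479-129801579 (minus strand).
Rpl31-ps9: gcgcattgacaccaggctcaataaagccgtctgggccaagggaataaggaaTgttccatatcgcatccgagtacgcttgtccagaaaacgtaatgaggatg
Rpl31: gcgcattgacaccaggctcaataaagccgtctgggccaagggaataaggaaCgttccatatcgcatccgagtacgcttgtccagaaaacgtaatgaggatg
Gm9794 is a copy of Rpl23, another large-subunit gene, shown at chr6:66875442-66875542 (minus strand).
Gm9794: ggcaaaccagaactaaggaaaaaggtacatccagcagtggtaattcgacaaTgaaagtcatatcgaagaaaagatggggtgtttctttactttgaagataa
Rpl23: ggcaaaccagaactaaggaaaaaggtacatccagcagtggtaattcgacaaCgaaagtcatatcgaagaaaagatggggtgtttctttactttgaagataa
Gm10145 is a copy of Ube2l3, a ubiquitin-conjugating enzyme gene, shown at chr10:27936602-27936702 (plus strand).
Gm10145: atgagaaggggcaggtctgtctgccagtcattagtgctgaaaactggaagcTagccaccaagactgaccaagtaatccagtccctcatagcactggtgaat
Ube2l3: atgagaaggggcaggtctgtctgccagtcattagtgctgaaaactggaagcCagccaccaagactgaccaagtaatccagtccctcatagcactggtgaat
Gm17538 is a copy of part of Usp9x, a deubiquitinase gene, shown at chr17:77674449-77674549 (minus strand).
Gm17538: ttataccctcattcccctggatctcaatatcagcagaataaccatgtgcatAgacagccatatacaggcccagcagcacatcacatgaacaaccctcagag
Usp9x: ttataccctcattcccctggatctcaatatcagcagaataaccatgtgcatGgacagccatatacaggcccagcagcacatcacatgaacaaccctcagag
Gm12254, a copy of Rpl24, differs from it at 3 bases of the stretch shown, at chr11:58508794-58508894 (minus strand).
Gm12254: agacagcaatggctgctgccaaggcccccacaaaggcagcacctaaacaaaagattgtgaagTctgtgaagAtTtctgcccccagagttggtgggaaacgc
Rpl24: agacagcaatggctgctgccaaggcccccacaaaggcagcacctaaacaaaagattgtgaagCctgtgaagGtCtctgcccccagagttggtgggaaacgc
Rpl10a-ps1 is the limiting case. Over its 654 bases it is 100% identical to Rpl10a, so no read that lies within it can be assigned to 1 of the 2 by its sequence.

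Parents were taken as the closest protein-coding transcript (BLAST), leaving out genes whose names begin with Gm. By this rule 11 of the 14 called pseudogenes are copies of ribosomal protein genes, and 10 of these 11 were higher in TKO_Ex. The ribosomal proteins form the large and small subunits of the cytosolic ribosome, and their genes have many processed copies in the mouse genome. Rpl31-ps9 had 256, 214, 248 and 242 FPKM in TKO_Ex and 104, 96.3 and 131 FPKM in DKO_Ex, and its mean was 2.18 times that of DKO_Ex (log2 difference 1.12 ± 0.12 (SE), adjusted p = 0.024). All TKO_Ex libraries were above the WT range of 113 to 168 FPKM as well. The parent Rpl31 did not pass, with a log2 difference of 0.26 and an adjusted p of 0.725.

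Gm3617, a copy of Rpl17, had 158, 187, 174 and 139 FPKM in TKO_Ex and 57.7, 63.2 and 70.7 FPKM in DKO_Ex (log2 difference 1.35 ± 0.12 (SE), adjusted p = 0.00872). Its TKO_Ex values lay above the WT range of 57.03 to 121 FPKM and its DKO_Ex values inside it. Gm12254 had 99.4, 97.1, 103 and 118 FPKM in TKO_Ex and 47.2, 41.1 and 47.6 FPKM in DKO_Ex (log2 difference 1.18 ± 0.10 (SE), adjusted p = 0.00796). For this copy DKO_Ex was below the WT range of 49.1 to 119.6 FPKM and TKO_Ex inside it. Gm9794 had 50.4, 53.03, 79.1 and 48.96 FPKM in TKO_Ex and 20.9, 17.1 and 21.1 FPKM in DKO_Ex (log2 difference 1.49 ± 0.18 (SE), adjusted p = 0.0383), and DKO_Ex was again below WT, at 27.05 to 52.3 FPKM. Rpl10a-ps1 had 289, 327, 308 and 312 FPKM in TKO_Ex and 201, 186 and 211 FPKM in DKO_Ex, the smallest rise of the 16, at 0.63 on the log2 scale (adjusted p = 0.0399).

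The remaining copies of ribosomal protein genes rose by between 0.78 and 1.23 on the log2 scale. They are Gm9625 (Rplp0), Rpl14-ps1 (Rpl14), Gm11478 (Rpl13a), Rpl18-ps1 and Gm11942 (Rplp1), with adjusted p from 0.0296 to 0.0447. Gm2000, annotated as protein-coding but 99.55% identical to Rpl35 over its 445 bases, had 1155, 1124, 1333 and 1068 FPKM in TKO_Ex and 662, 592 and 744 FPKM in DKO_Ex (log2 difference 0.81 ± 0.10 (SE), adjusted p = 0.0434). None of the parents passed, and their own log2 differences ran from -0.03 for Rplp0 to 0.33 for Rpl37a.

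Gm10145, the copy of Ube2l3, had 32.5, 31.1, 43.4 and 38.9 FPKM in TKO_Ex and 15.2, 11.9 and 12.2 FPKM in DKO_Ex (log2 difference 1.41 ± 0.15 (SE), adjusted p = 0.0242), above its WT range of 9.09 to 22.9 FPKM in all TKO_Ex libraries. Ube2l3 itself differed by 0.42 on the log2 scale without passing (adjusted p = 0.210). Gm17538 had 6.66, 5.802, 7.36 and 11.4 FPKM in TKO_Ex and 0 FPKM in every DKO_Ex library (adjusted p = 0.00606), and the 6 WT libraries of this tissue also had 0 FPKM. Usp9x, its parent, differed by -0.02 on the log2 scale. Gm9238, a copy of the elongin B gene Elob, had 13.1, 11.4, 7.22 and 5.58 FPKM in TKO_Ex and 0 FPKM in every DKO_Ex library (adjusted p = 0.00796), with a WT range of 0 to 6.19 FPKM. Gm17538 has 325 bases and Gm9238 has 329, so at the depth of these libraries their TKO_Ex values rest on few fragments.

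In 2 of the called features with a group listed at 0, the WT range covered both mutant groups. Gm23472, a small nuclear RNA of 191 bases at chr1:72236946-72237136, had 67.4, 56.6, 77.2 and 115 FPKM in TKO_Ex and 0 FPKM in every DKO_Ex library (adjusted p = 3.68e-05), while WT libraries ran from 0 to 241 FPKM. Its direction turned by record, from a log2 difference of 6.27 to -0.30. Gm20302, a copy of Rpl37a and the only feature that fell, had 0 FPKM in every TKO_Ex library and 7.02, 8.7004 and 7.02 FPKM in DKO_Ex (adjusted p = 0.003), and WT ran from 0 to 9.38 FPKM. An FPKM of 0 in the shallower TKO_Ex libraries rests on no fragment assigned to a short feature. The DKO_Ex values of Gm20302, which has 275 bases, rest on few fragments as well.

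**Figure D2:**
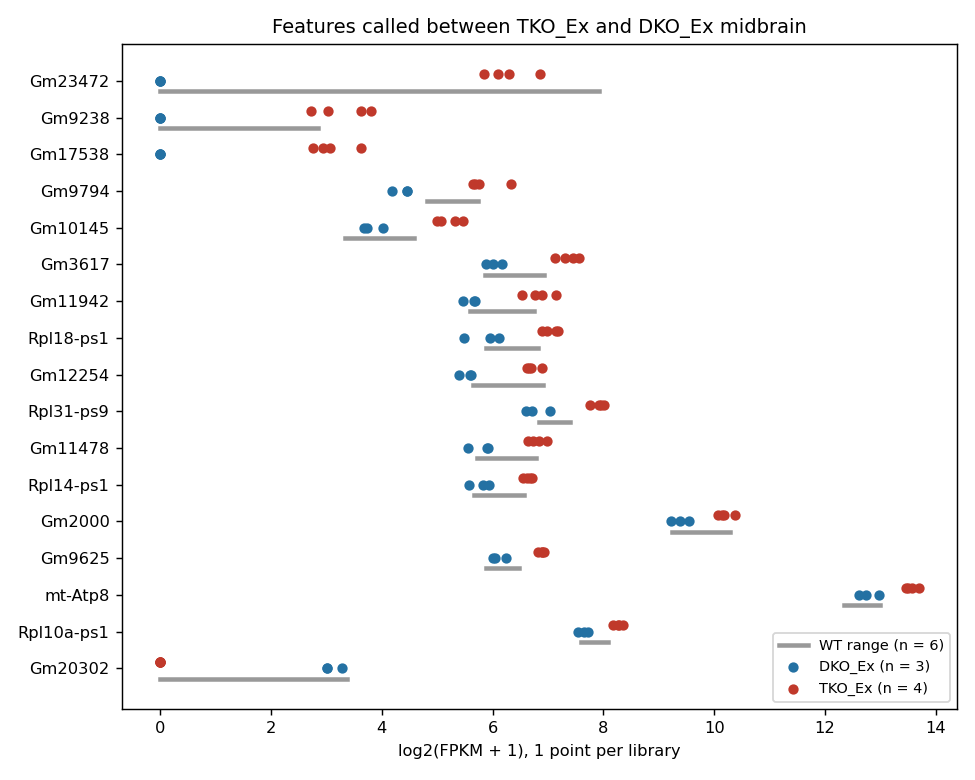
Level of the 17 called features in each TKO_Ex (red) and DKO_Ex (blue) Mb library as log2(FPKM + 1), with the range of the 6 WT Mb libraries in grey. In each row the red and blue points are separate, and for Gm23472 and Gm20302 the WT range covers both groups.

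Over the copies as a class the log2 differences were mostly positive, in 631 of 833. Among 268 tested processed pseudogenes closest to ribosomal protein genes the median log2 difference was 0.47, and 102 were higher and 8 lower at an unadjusted p under 0.05. Among 565 copies of other genes the median was 0.30, with 106 higher and 6 lower, while over all genes tested it was -0.02, with 4.19% higher and 3.27% lower. The median of the parents of the 833 copies was 0.05. Dropping TKO_Ex replicate 3 put the median of the ribosomal copies at 0.40, and by record it was 0.33. As a share of all FPKM, the 268 ribosomal copies held 5.20, 6.20, 6.08 and 5.76% in TKO_Ex and 5.10, 5.58 and 5.54% in DKO_Ex. On this measure the groups overlapped.

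Feature length moved with the differences. The median log2 difference was 0.30 for 569 features under 500 bases of exon, 0.22 for 592 features of 500 to 1000 bases, 0.06 for 811 of 1000 to 2000 bases and -0.04 for 8800 of at least 5000 bases. Protein-coding genes followed the same order, from 0.20 in 50 genes under 500 bases to -0.04 in 8639 genes of at least 5000 bases. Features under 1000 bases held 22.7, 22.2, 22.2 and 22.3% in TKO_Ex and 19.4, 19.2 and 20.4% in DKO_Ex of all FPKM, and the groups did not overlap. WT Mb libraries ran from 19.6 to 31.2%, a range that holds all TKO_Ex values. The part of length, and of the depth that separates the groups, in the called features and in the list counts was not tested.

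**Figure D3:**
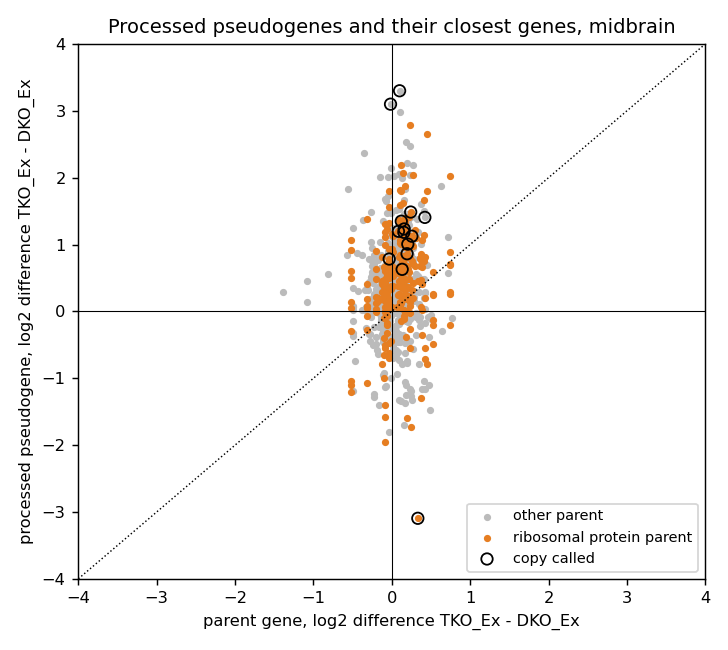
Log2 difference (TKO_Ex minus DKO_Ex, Mb) of processed pseudogenes against that of the closest protein-coding gene, with copies of ribosomal protein genes in orange, others in grey and called copies circled. Most points lie above 0 on the vertical axis while the parents are spread closely around 0, the dotted line marks equal differences, 3 copies lie outside the axes, and 18 whose parent was not tested are not drawn.

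Mitochondrially encoded mRNAs specify 13 subunits of the respiratory chain and ATP synthase. All 13 had a positive log2 difference, 11 of them at an unadjusted p under 0.05, against 4.19% of all genes, with a median of 0.32, and 1 was called. The called gene was mt-Atp8, a subunit of ATP synthase, with 12116, 11630.1, 11209.8 and 13347 FPKM in TKO_Ex and 6842, 6226 and 8066 FPKM in DKO_Ex (log2 difference 0.78 ± 0.10 (SE), adjusted p = 0.0433). TKO_Ex libraries were all above the WT range of 5208 to 8152 FPKM. The gene is short, with 204 bases, and overlaps mt-Atp6, so fragments of the 2 can be split between them.

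Other mitochondrial mRNAs did not pass. The complex I subunit mt-Nd3 had 4683, 4551, 5556 and 4071 FPKM in TKO_Ex and 2459.7, 3148 and 3211 FPKM in DKO_Ex (log2 difference 0.68 ± 0.13 (SE), adjusted p = 0.172). The cytochrome oxidase subunit mt-Co1 had 5038, 4859, 4792 and 5185 FPKM in TKO_Ex and 4150.0, 3675 and 4118 FPKM in DKO_Ex (log2 difference 0.32 ± 0.07 (SE), adjusted p = 0.21), with both groups separate in each case. Together the 13 mRNAs made up 7.07, 7.21, 7.21 and 7.704% in TKO_Ex and 5.92, 5.44 and 6.37% in DKO_Ex of all FPKM, against 4.71 to 5.504% in WT. Quantile normalization lowered the median to 0.02 and turned mt-Co1 to -0.10, so the size of the difference depends on scaling.

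Of 84 tested genes for nuclear-encoded respiratory chain subunits and their assembly factors, 0 were called (median 0.17). At an unadjusted p under 0.05, 19 were higher and 0 lower, against 4.19% and 3.27% of all genes. Short protein-coding genes had larger shares, with 21.4% in either direction at 500 to 1000 bases of exon. Uqcr11, a small subunit of complex III, had 404, 398, 401 and 367 FPKM in TKO_Ex and 259.6, 284 and 311 FPKM in DKO_Ex (log2 difference 0.46 ± 0.08 (SE), adjusted p = 0.151). For Cox8a of cytochrome oxidase the log2 difference was 0.41 ± 0.08 (SE), adjusted p = 0.192. By record the median was -0.02.

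Among 80 tested ribosomal protein genes, 0 were called (median 0.16). At an unadjusted p under 0.05, 21 were higher and 0 lower, against 4.19% and 3.27% of all genes. Rps27 of the small subunit had 5552, 5812, 6488 and 5370.4 FPKM in TKO_Ex and 3794, 4077 and 4933 FPKM in DKO_Ex (log2 difference 0.45 ± 0.11 (SE), adjusted p = 0.289). Rpl34 of the large subunit gave 0.42 (adjusted p = 0.343). Together the 80 genes held 18.1, 19.5, 19.6 and 17.7% of all FPKM in TKO_Ex and 16.4, 17.1 and 18.7% in DKO_Ex, and the groups overlapped. The median turned to -0.05 with quantile normalization and was 0.01 by record, so no direction is given for these genes.

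Primitive erythrocytes circulate in the vessels of the E9.5 head and are filled with embryonic globins. All 11 genes of the red cell list had positive log2 differences, with a median of 0.84, but 0 were called. At an unadjusted p under 0.05, 9 of 11 were higher, against 4.19% of all genes. The embryonic beta-like globin Hbb-bh1 had 5584, 3545, 4228 and 3868 FPKM in TKO_Ex and 2574, 1846 and 1661 FPKM in DKO_Ex (log2 difference 1.09 ± 0.19 (SE), adjusted p = 0.138). Another embryonic beta-like globin, Hbb-y, had 6758, 4753, 5035 and 5246 FPKM in TKO_Ex and 3475, 2619.6 and 2123 FPKM in DKO_Ex (log2 difference 1.01 ± 0.18 (SE), adjusted p = 0.14). For both, TKO_Ex and DKO_Ex were separate, but WT libraries covered both groups, from 1562 to 6217 FPKM for Hbb-bh1 and from 1629 to 9048 FPKM for Hbb-y.

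The embryonic alpha-like globin Hba-x gave 0.87 (adjusted p = 0.21) and Hba-a1, which has a near-identical copy, 0.86 (adjusted p = 0.284). Globins made up 2.997, 1.85, 2.06 and 2.07% in TKO_Ex and 1.59, 1.23 and 1.01% in DKO_Ex of all FPKM. Fewer red cells and less globin mRNA per cell cannot be told apart in such tissue, and this holds for each cell type below. The part of blood content in the other differences was not tested. By record the median of the list was 0.50.

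Of 12 endothelial genes tested, 0 were called and 0 were at an unadjusted p under 0.05, with a median of -0.10. The 4 endothelial markers Kdr, Pecam1, Cdh5 and Tek summed to between 20.6 and 22.6 FPKM in TKO_Ex and between 19.9 and 27.7 FPKM in DKO_Ex. Macrophage genes were too low to test, and Csf1r and C1qa did not exceed 0.770 FPKM.

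Genes of hypoxia and glycolysis had the reverse sign. Among 17 tested, 0 were called, and 0 were higher and 7 lower in TKO_Ex at an unadjusted p under 0.05, against 3.27% lower over all genes (median -0.26). The angiogenic factor Vegfa had 16.9, 29.1, 22.2 and 35.1 FPKM in TKO_Ex and 51.4, 53.9 and 47.8 FPKM in DKO_Ex (log2 difference -1.003 ± 0.22 (SE), adjusted p = 0.264). Every TKO_Ex library was below every DKO_Ex library, and WT spanned 23.1 to 41.2 FPKM, below all DKO_Ex libraries. The hexokinase gene Hk2 had 31.9, 29.8, 39.95 and 31.4 FPKM in TKO_Ex and 41.4, 46.9 and 51.9 FPKM in DKO_Ex (log2 difference -0.48 ± 0.13 (SE), adjusted p = 0.405), and by record its sign turned, to 0.46.

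Aldoa, the glycolytic aldolase, gave -0.34 (adjusted p = 0.451) with separate groups, and Bnip3, a mitophagy receptor, -1.39 (adjusted p = 0.571) with groups that overlapped. The median of the list changed to -0.17 when TKO_Ex replicate 3 was left out and to -0.18 by record.

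**Figure D4:**
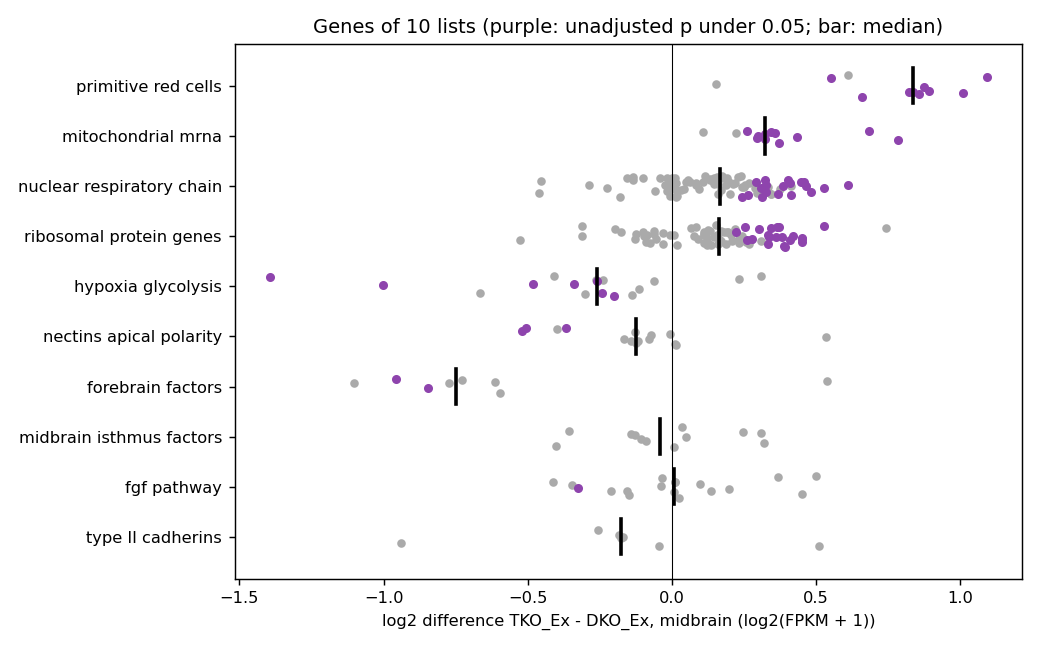
Log2 difference (TKO_Ex minus DKO_Ex, Mb) of each tested gene in 10 lists, purple where the unadjusted limma p was under 0.05, with a bar at the median. Red cell and mitochondrial genes lie to the right of 0, and 15 of 17 hypoxia and glycolysis genes to the left.

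Factors that pattern the Mb did not pass. Of 12 Mb and isthmus factors tested, 0 were called and 0 were at an unadjusted p under 0.05 (median -0.04). Otx2, which sets the posterior limit of the Mb, had 83.5, 59.8, 92.6 and 112 FPKM in TKO_Ex and 68.1, 158 and 132 FPKM in DKO_Ex (log2 difference -0.40 ± 0.31 (SE), adjusted p = 0.837), and the groups overlapped. Pax2, an early factor of the Mb and isthmus, gave -0.36 (adjusted p = 0.798). By record both turned positive, at 0.32 and 0.43, and the median of the list was 0.44.

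Among 8 tested forebrain factors, 0 were called and 7 had negative log2 differences, with a median of -0.75, which was -0.34 by record. At an unadjusted p under 0.05, 2 were lower, against 3.27% of all genes. Emx2, a dorsal forebrain factor, had 0.346, 0.64, 0.751 and 0.461 FPKM in TKO_Ex and 1.93, 2.59 and 1.55 FPKM in DKO_Ex (log2 difference -0.96 ± 0.26 (SE), adjusted p = 0.395). Its groups were separate, at a level where few fragments back each value. Tcf7l2, the Wnt effector of the caudal forebrain, had 8.18, 8.34, 8.79 and 17.8 FPKM in TKO_Ex and 15.3, 21.3 and 21.5 FPKM in DKO_Ex (log2 difference -0.85 ± 0.27 (SE), adjusted p = 0.506), with TKO_Ex replicate 4 within the DKO_Ex range. The part of the dissection border in these values was not tested.

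The Fgf pathway, which signals from the isthmus to the Mb, had 0 called of 18 tested, and 1 gene lower and 0 higher at an unadjusted p under 0.05 (median 0.01, by record 0.29). Fgf15 had 58.5, 45.98, 53.2 and 39.6 FPKM in TKO_Ex and 50.8, 73.5 and 42.5 FPKM in DKO_Ex (log2 difference -0.15 ± 0.20 (SE), adjusted p = 0.921), and the interval of the difference ran from -0.62 to 0.32 (95%). Both groups were above the WT range of 25.5 to 37.4 FPKM, in which tissue low in En1 and En2 is included. The receptor Fgfr1 gave -0.33 ± 0.14 (SE), adjusted p = 0.668, the receptor Fgfr2 -0.35 (adjusted p = 0.769) and the feedback inhibitor Spry1 0.37 (adjusted p = 0.696).

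Gli1, a transcriptional target and effector of hedgehog signalling, had 13.99, 11.9, 16.6 and 14.2 FPKM in TKO_Ex and 23.8, 21.6 and 22.1 FPKM in DKO_Ex (log2 difference -0.64 ± 0.13 (SE), adjusted p = 0.208). DKO_Ex libraries were above all TKO_Ex libraries and above the WT range of 5.96 to 14.5 FPKM, but by record the difference was -0.04. Over the 12 tested genes of the pathway, 0 were called, and 0 were higher and 1 lower at an unadjusted p under 0.05. Nkx6-2, a ventral factor, gave -0.28 (adjusted p = 0.554) with separate groups, but 0.44 by record. Of 24 Wnt pathway genes, 0 were called and 1, the ligand Wnt7b, was lower at an unadjusted p under 0.05, with 1.75, 1.72, 2.51 and 1.704 FPKM in TKO_Ex and 3.77, 6.198 and 2.53 FPKM in DKO_Ex (log2 difference -0.77 ± 0.27 (SE), adjusted p = 0.564).

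Of 7 tested type II cadherins, the 3 targets included, 0 were called and 0 were at an unadjusted p under 0.05. Cdh20, another type II cadherin, had 2.44, 2.89, 2.08 and 1.63 FPKM in TKO_Ex and 1.49, 1.31 and 1.01 FPKM in DKO_Ex (log2 difference 0.51 ± 0.23 (SE), adjusted p = 0.697), with separate groups and all values under 3 FPKM. Among 15 nectin and apical polarity genes, 0 were called, and 3 were lower at an unadjusted p under 0.05, against 3.27% of all genes. Nectin2, an immunoglobulin-like adhesion molecule of adherens junctions, had 21.6, 23.4, 27.4 and 27.1 FPKM in TKO_Ex and 36.9, 34.8 and 34.9 FPKM in DKO_Ex (log2 difference -0.51 ± 0.12 (SE), adjusted p = 0.28).

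Nectin1 gave -0.52 ± 0.14 (SE), adjusted p = 0.39, and by record 0.06. The apical polarity protein gene Crb2 gave -0.37 (adjusted p = 0.664). Dvl1, a shared effector of Wnt and planar cell polarity signalling, had 21.4, 18.8, 18.2 and 15.8 FPKM in TKO_Ex and 21.8, 31.4 and 32.05 FPKM in DKO_Ex (log2 difference -0.58 ± 0.17 (SE), adjusted p = 0.434), and its sign turned by record, to 0.13. It was the only one of 14 planar cell polarity genes at an unadjusted p under 0.05. Of 20 apical constriction genes, 0 were called and 0 were at that level. The protocadherin Pcdh1 had 4.62, 5.04, 16.5 and 3.11 FPKM in TKO_Ex and 4.09, 4.602 and 3.99 FPKM in DKO_Ex, and the high value is that of the library labelled TKO_Ex replicate 3.

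Genes of progenitors, neurons and growth did not pass either. The RNA-binding progenitor protein gene Msi1 had 112, 113, 113 and 157 FPKM in TKO_Ex and 159, 162 and 171 FPKM in DKO_Ex (log2 difference -0.42 ± 0.13 (SE), adjusted p = 0.485). Neurog2, a proneural factor, gave -0.70 ± 0.24 (SE), adjusted p = 0.554, the progenitor factor Sox2 -0.16 (adjusted p = 0.743) and the imprinted non-coding RNA Meg3 -0.60 (adjusted p = 0.391), each with separate groups. Msi1 and Sox2 turned positive by record, at 0.11 and 0.03. Of 23 cell cycle genes, 0 were called and 0 were at an unadjusted p under 0.05 (median 0.04), and the same held for 12 p53 targets (median -0.12). Neural crest genes, 7 tested, and cranial mesenchyme genes, 11 tested, had 0 called and 0 at that level. Krt8, a keratin of the surface ectoderm, had 7.49, 12.3, 14.1 and 11.4 FPKM in TKO_Ex and 16.5, 14.5 and 17.2 FPKM in DKO_Ex (log2 difference -0.50 ± 0.20 (SE), adjusted p = 0.618). Over the 9 tested surface ectoderm genes, 0 were called, and 0 were higher and 1 lower at an unadjusted p under 0.05. Their log2 differences were positive in 3 and negative in 6, from -0.50 to 0.44, so no direction is given for this tissue.

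Only 1 feature fell past the threshold, so the 9 next by unadjusted p are given as values that did not pass. Cfap69, a protein gene of motile cilia, had 0, 0.819, 0.803 and 0.0981 FPKM in TKO_Ex and 2.42, 5.37 and 5.19 FPKM in DKO_Ex (log2 difference -1.90 ± 0.36 (SE), adjusted p = 0.171). Nenf, a secreted neurotrophic factor gene, had 9.03, 8.15, 10.8 and 6.17 FPKM in TKO_Ex and 18.9, 18.3 and 16.4 FPKM in DKO_Ex (log2 difference -1.01 ± 0.18 (SE), adjusted p = 0.14). Miip had 8.57, 13.2, 8.28 and 8.41 FPKM in TKO_Ex and 18.5, 23.96 and 20.5 FPKM in DKO_Ex (log2 difference -1.07 ± 0.18 (SE), adjusted p = 0.138). The forkhead factor gene Foxl2 gave -0.68 (adjusted p = 0.186). The log2 differences of Gtf2h2, Shf, Ncln, Pde7a and Pfas ran from -0.63 to -0.45 with adjusted p of 0.185 to 0.208. All 9 genes had separate groups, as did 3.74% of all genes in this direction. They were picked by p on the same libraries, so this separation adds no support.

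Of the 7 genes the study had selected, 0 were called between TKO_Ex and DKO_Ex and 0 were at an unadjusted p under 0.05. The study chose them on libraries that include these, for similar changes in both mutant groups. Agreement between the 2 groups was thus part of the selection, and these counts are no independent result. Besides Fgf15, the log2 differences were -0.01 for Ccn2, 0.18 for Nsg2, 0.08 for Cherp, 0.24 for Rps25-ps1, -0.11 for Gcdh and -0.12 for 2410018L13Rik. Tecr, an enzyme gene of very-long-chain fatty acid elongation, had 337, 302, 246 and 283 FPKM in TKO_Ex and 279, 302 and 301 FPKM in DKO_Ex, and both groups were above the WT range of 136 to 186 FPKM. Its log2 difference was -0.02 ± 0.11 (SE), adjusted p = 0.996. By record the sign turned for Nsg2 (-0.43), 2410018L13Rik (0.29), Tecr (0.13) and Rps3a3 (-0.07). Rps3a3 overlapped between the groups too (0.18), as did Hsdl1 (-0.40). Usp50 had 93.7, 79.9, 108 and 80.4 FPKM in TKO_Ex and 70.4, 66.7 and 55.3 FPKM in DKO_Ex (log2 difference 0.48 ± 0.14 (SE), adjusted p = 0.429), and Rpl26-ps2 gave 0.82 (adjusted p = 0.564).

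Genes near Cdh6 were examined because a mutant chromosome carries its neighbours with it. Within 20 Mb of Cdh6 on chromosome 15, 0 of 55 tested genes were called, 2 were higher and 1 lower at an unadjusted p under 0.05, and the median log2 difference was -0.00216, against -0.02 over all genes. By record the median near Cdh6 was -0.11. Within 20 Mb of the Cdh8 to Cdh11 interval, 0 of 276 were called and the median was -0.03. Near Cdh6, Zfr, an RNA-binding protein gene, had 27.4, 42.2, 38.9 and 39.3 FPKM in TKO_Ex and 43.5, 45.7 and 45.3 FPKM in DKO_Ex (log2 difference -0.29 ± 0.15 (SE), adjusted p = 0.761). The pseudogene Hnrnpa1l2-ps2 had 27.6, 31.2, 36.1 and 26.2 FPKM in TKO_Ex and 22.7, 17.2 and 22.2 FPKM in DKO_Ex (log2 difference 0.53 ± 0.15 (SE), adjusted p = 0.434).

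**Figure D5:**
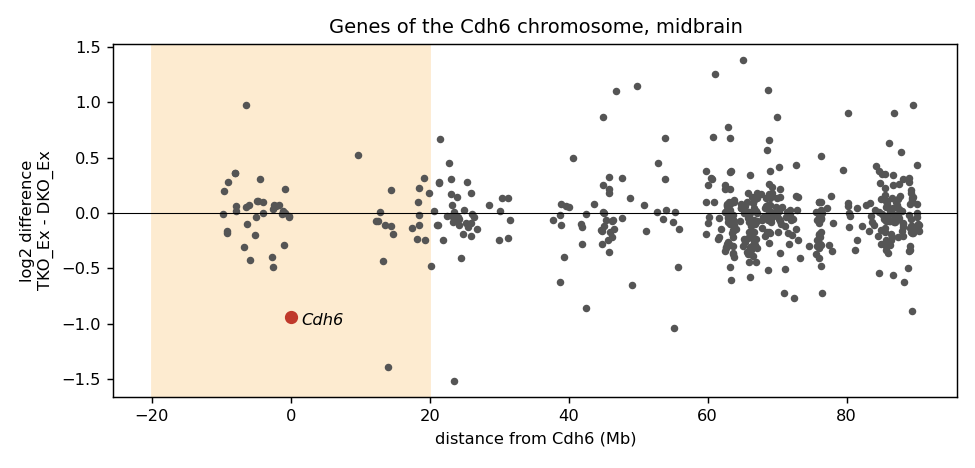
Log2 difference (TKO_Ex minus DKO_Ex) of tested genes on chromosome 15 against their distance from Cdh6 in Mb of sequence, with 20 Mb on either side shaded and Cdh6 in red. Genes in the shaded part lie around 0, with a median of -0.00216.

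Of the 17 called features, 7 lie on chromosome 1, which holds 6.64% of the genes tested, and 0 lie on chromosomes 8 and 15. They are Gm2000, Gm20302, Gm23472, Gm3617, Rpl10a-ps1, Rpl18-ps1 and Rpl31-ps9, and this count was made after the calls were seen.

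In the Fb of the same groups, 4 of 13305 features were called (0.0301%), namely Ece1, Fam107b, Gm23547 and Rec8, and none of the 17 was among them. Of the 17, 14 could be tested in the Fb, and 12 of these had the same sign there. Tested against each other, the Mb and Fb effects differed in 2 of 13427 features (0.0149%), Gm17538 and Gm20302, both below the Fb filter and both with a group listed at 0 in the Mb. With same-numbered Mb and Fb libraries of a group taken as 1 block, limma called 0, with 899 at an unadjusted p under 0.05. For the other 15 a difference between tissues was not called.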

How the data were processed

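RNA from Mb of 4 TKO_Ex and 3 DKO_Ex embryos was the main material, with WT, DKO_CD and Fb libraries beside it. Directional libraries were aligned by the authors to GRCm38 with TopHat2, and the deposited values are FPKM per gene from Cufflinks, scaled by the authors to transcript length and mapped fragments (tools per the submitters' processing notes and the paper's methods). Their versions are not given in the sources used here. Fragments that match several near-identical genes can be shared out among them, and the part of this step in the values was not tested. The authors' read counts were not used.

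Values of 65 repeated identifiers were summed, and 48218 of 48576 identifiers were found in GENCODE M21. The files give no depth. It was estimated from the fragment step in low values of 771 single-transcript genes, where 88.2 to 96.2% of values per library fell within 0.1 of a whole fragment.

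Genes averaging 1 FPKM or more were compared on log2(FPKM + 1) by limma (version 3.58.1, R 4.3.3; lmFit, and eBayes with its trend option) at an adjusted p (Benjamini-Hochberg over all genes tested) under 0.05. A log2 difference on this scale understates changes of low genes. For the 3 targeted genes, exact permutation tests (two-sided) were run in SciPy 1.17.1 under Python 3.11.15. Copies were matched to coding transcripts with BLAST+ 2.17.0 (E-value 1e-10), and the best match was taken after genes whose names begin with Gm were left out. On simulated FPKM of the Mb comparison, 200 genes averaging at least 5 FPKM were changed. Of those changed by a log2 of 1, 77% were recovered, and 97% of those changed by 2, among 13375 genes with 9 false calls. The simulation used a single dispersion of 0.02 for all genes, with no shift by feature length and no library out of place. Its shares are thus a check of the code and do not give the recovery in the real libraries or for lower genes.

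Named genes were Cdh6, Cdh8 and Cdh11, up to 15 called rises and 15 called falls, the next by unadjusted p where fewer than 10 were called in a direction, the 4 or 6 genes of smallest p in each list or near Cdh6, and genes of the study's selection and of earlier results. Rpl10a-ps1, the smallest of the 16 rises, was added after its values were seen. Members and lists were chosen with earlier results of these data known. Lists of nuclear respiratory chain and ribosomal protein genes and of pseudogenes were added after the files had been opened. Replicate numbers are those of the labels, which do not say how embryos of different groups relate, and p-values measure the spread between these libraries.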

Additional observations from a re-analysis of the deposited data

Results flagged for a closer look

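Of 80 named genes that varied among the 4 TKO_Ex Mb libraries, 14 had 1 library whose gap to its nearest neighbour took up more of the range than Dixon's 95% critical value for 4 samples allows. Chance alone flags about 1 in 20 such groups.

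The library labelled TKO_Ex replicate 3 stood apart for Cdh6 at 3.097 FPKM (nearest 0.388), Gm9794 at 79.1 FPKM (nearest 53.03), Wnt7b at 2.51 FPKM (nearest 1.75), Pcdh1 at 16.5 FPKM (nearest 5.04), Spry1 at 30.4 FPKM (nearest 23.1), Gm26825 at 8.36 FPKM (nearest 0.464) and Gm12013 at 281 FPKM (nearest 0). TKO_Ex replicate 4 stood apart for Tcf7l2 at 17.8 FPKM (nearest 8.79), Msi1 at 157 FPKM (nearest 113), Fgfr1 at 41.1 FPKM (nearest 33.2), Uqcr11 at 367 FPKM (nearest 398) and Rps3a3 at 678 FPKM (nearest 548). TKO_Ex replicate 1 stood apart for mt-Nd4l at 1893 FPKM (nearest 2165). TKO_Ex replicate 2 stood apart for Miip at 13.2 FPKM (nearest 8.57). 

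The effect of TKO_Ex against DKO_Ex differed between Mb and Fb, by limma's test of the difference, for Gm17538 (3.10 on the log2 scale, adjusted p = 0.0024) and for Gm20302 (-3.10, adjusted p = 0.00155). In each, 1 of the Mb groups was listed at 0, so that the value depends on the pseudocount and is no bound. This test took Mb and Fb libraries as independent. With same-numbered Mb and Fb libraries of a group as 1 block, limma called 0 features.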

How the results depend on the processing

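The 17 Mb calls numbered between 12 and 19 without a filter, with a mean of at least 5 FPKM, with 1 FPKM in every library, with pseudocounts of 0.1 and 5, with median-of-ratios scaling, with quantile normalization, without chromosomes 8 and 15 and with a log2 fold change of at least 1. They fell to 10 with Xist as a covariate, 7 with all 4 groups in one fit, 4 without the mean-variance trend and 1 by record. With the replicate number as a block, 1 Mb feature was called, 0 in the Fb and 0 for the difference between tissues. Same-numbered TKO_Ex and DKO_Ex libraries are different embryos, and their deviations from the group means correlated between -0.01 and 0.03, so the numbers do not pair them. With protein-coding genes only, or features of at least 1000 bases only, both chosen after seeing the data, 0 were called. Leaving out 1 library gave 4 to 24 Mb calls, 1 to 3 Fb calls and 0 to 3 calls for the difference between tissues.

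The 4 Fb calls became 2 with 1 FPKM in every library, 1 without a filter, with a pseudocount of 5, without the trend or with Xist, and 0 with all groups in one fit or by record. The 2 calls for the difference between tissues became 0 with a mean of at least 5 FPKM, 1 FPKM in every library, a pseudocount of 0.1, all groups in one fit, or by record. The median around Cdh6 was -0.11 by record, and -0.04 to 0.04 with 1 library left out. The cause of these changes was not tested, beyond fewer features or libraries entering a fit.

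For the 17 called features, 163 of 316 refits kept the direction and the call, 152 lost the call and 1 changed sign. Over all 81 named genes, 31 of 1513 refits changed sign, and 0 of the genes not called passed in any refit. By record the log2 difference was 0.12 for Cdh8, -0.30 for Gm23472, 0.46 for Hk2, 0.44 for Nkx6-2, 0.0596 for Nectin1, 0.13 for Dvl1, 0.11 for Msi1, 0.0271 for Sox2, 0.32 for Otx2, 0.43 for Pax2, 0.13 for Tecr, -0.0677 for Rps3a3, -0.43 for Nsg2 and 0.29 for 2410018L13Rik. For mt-Co1 it was -0.10 with quantile normalization. For Ccn2 it was 0.0045 with median-of-ratios scaling, 0.0274 with quantile normalization and 0.16 with the replicate block. Leaving out 1 library gave log2 differences of -0.0094 to 0.69 for Pcdh1, -0.32 to 0.0691 for Fgf15, -0.0886 to 0.0632 for Tecr, -0.49 to 0.15 for Gcdh, -0.12 to 0.16 for Ccn2 and -0.50 to 0.0948 for 2410018L13Rik. Depth limits genes near 1 FPKM, which rest on few fragments.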
